A study of Homo sapiens with 17 samples.

Results

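FOXA1 binding was compared between parental A549 cells and an A549 line that carries an inducible A-Fos gene but received no inducer. The comparison used 4 ChIP-seq peak lists of 17 samples in the series, 2 from parental cells and 2 from the uninduced line. On chromosomes 1 to 22 and X, peaks of the 2 lists of a group that shared at least 1 bp were joined into regions, and a region was kept when both lists called it. There were 35739 such regions in parental cells and 6015 in uninduced A-Fos cells. Of the parental regions, 5921 (16.6%) overlapped such an A-Fos region and are called shared, and 23295 (65.2%), called parental-only, had no peak in either A-Fos list. Of the A-Fos regions, 5972 (99.3%) overlapped a parental region, and 17 (0.283%) had no parental peak at all.

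A549 is an established human lung carcinoma line. The parental cells are labelled wild type and untreated. The A-Fos cells carry A-Fos integrated with the piggyBac transposon and are labelled as not given doxycycline, while the induced libraries cited below received 1 µg/mL doxycycline for 48 h. All cells were fixed in 1% formaldehyde for 10 min, and the labels call the libraries biological replicates. Whether the A-Fos line is 1 clone, and how much A-Fos it makes without doxycycline, is not stated in the labels. Peak lists carry no expression values, so neither the lung identity of the cells nor A-Fos itself could be checked in them.

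FOXA1 is a forkhead transcription factor of lung, liver and other foregut-derived epithelia. It is called a pioneer factor because it can bind its DNA motif on nucleosomes and open chromatin for other factors. Most of its sites lie away from gene starts, many of them in enhancers. AP-1 is a dimer of Fos and Jun family proteins, FOSL2 among them, that binds enhancers in many epithelial cells. A-Fos is a dominant-negative Fos whose acidic extension pairs with Jun proteins and keeps them off DNA.

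The parental lists were longer than the A-Fos lists. The parental libraries gave 49448 and 80318 FOXA1 peaks, and the uninduced A-Fos libraries gave 7633 and 13247. The groups did not overlap, with 64883 ± 21828 peaks (SD, n = 2) against 10440 ± 3970 (SD, n = 2), a ratio of 6.21. With 2 lists a group the exact two-sided permutation test cannot go below p = 0.33, which is the value obtained, and it was 0.667 after Benjamini-Hochberg adjustment over the 10 list-level measures compared. Sequencing depth per library is not in the lists, and the labels give the same number of reads for every sample. The peak names of the A-Fos lists record a deduplication step that the parental names do not. The running numbers in the A-Fos peak names also lack 77 and 127 numbers, and those of the parental lists lack none. A difference in processing and the difference between the cells therefore cannot be told apart.

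Peak shape differed less than peak number. Median peak widths were 237 and 355 bp in the parental lists and 365 and 340 bp in the A-Fos lists, so the groups overlapped (exact permutation p = 0.667). The authors' fold enrichment, the ratio of signal over background at a peak, had medians of 5.31 and 5.19 in the parental lists and 5.74 and 6.34 in the A-Fos lists. The strongest peaks differed more, with maxima of 649 and 795 in parental cells and 110 and 162 in A-Fos cells. Regions are graded below by the rank of their enrichment within a list. It is written as a percentile from 0 for the weakest peak to 100 for the strongest. A percentile still depends on how many weaker peaks a list holds. Shared regions away from start sites, chromosome 8 left out, had median percentiles of 92.8 and 95.7 in the parental lists. Their medians were 61.0 and 76.3 in the A-Fos lists, so a lower A-Fos percentile is not by itself a weaker site. Folds are also given for single regions. The strongest folds were higher in the parental lists, so a lower A-Fos fold is not by itself a lower rank.

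The A-Fos peaks lay inside the parental set list by list as well. Of the first A-Fos list, 86.4% and 88.4% of peaks overlapped a peak of the first and second parental list, and of the second, 91.4% and 94.1%. The first A-Fos list shared 79.0% of its peaks with the second, and 45.5% of the second were in the first. In the other direction 13.4% and 24.7% of the first parental list were in the A-Fos lists, and 8.30% and 15.3% of the second. The 2 parental lists shared 75.1% of the shorter and 44.5% of the longer.

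The shared regions were mainly strongly enriched ones. The 35739 parental regions were split into 10 equal parts (deciles) by their mean percentile in the 2 parental lists. In the weakest decile 0.112% were shared. The share was 1.96% in the fifth decile, 8.11% in the seventh, 20% in the eighth and 43.8% in the ninth, and it reached 86.1% in the strongest. The parental-only share ran the other way, from 97.6% in the weakest decile to 2.99%, or 107 regions, in the strongest. Between these classes lay 6523 regions, of which 5929 were called by the second and longer A-Fos list only and 576 by the first only. The other 18 were split, with peaks of both A-Fos lists that did not join into 1 A-Fos region.

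**Figure D1:**
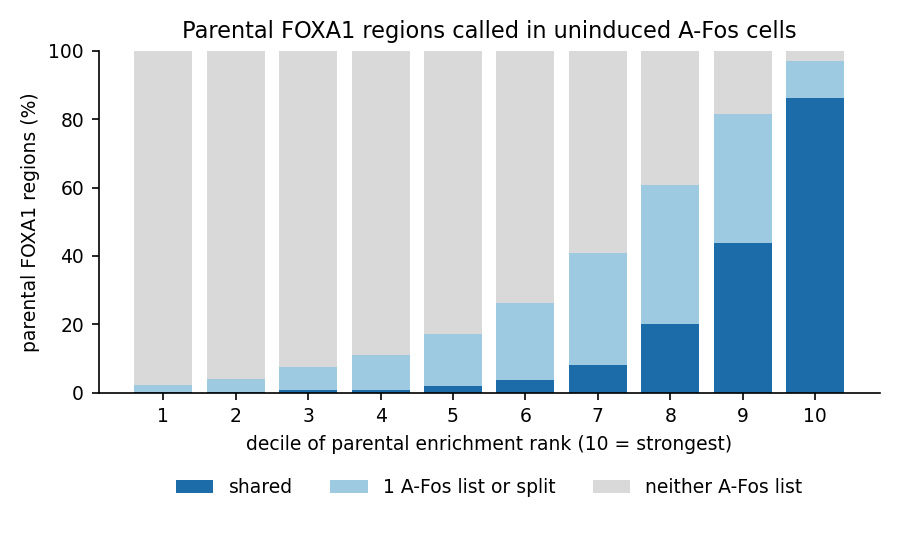
Share of parental FOXA1 regions (vertical axis, %) that were shared with uninduced A-Fos cells, called in 1 A-Fos list or split, or called in neither list, by decile of mean enrichment rank in the parental lists (horizontal axis, 10 is the strongest). The shared part grows from 0.112% in the weakest decile to 86.1% in the strongest.

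With all 4 lists cut to the same length, the 7633 strongest peaks each, the sets overlapped more evenly. Then 6079 regions were called in both parental lists and 5105 in both A-Fos lists. Of the parental ones 67.7% were shared, and of the A-Fos ones 81.4%. There were 874 parental regions with no A-Fos peak and 385 A-Fos regions with no parental peak.

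The shared regions of highest enrichment stood out in all 4 lists. The region 137.5 kb from RPLP1, a ribosomal stalk protein gene, had a fold enrichment of 312 and 795 in the parental lists and 47.2 and 67.9 in the A-Fos lists. A region in ITPR2, which encodes an IP3-gated calcium channel, reached 187 and 483 in parental cells and 99.9 and 151 in A-Fos cells. The region in TRIM34, a tripartite motif gene, had 248.6 and 449.9 against 72.3 and 156. The other 3 of the 6 named by rank lay 20.7 kb from NACA2 and within MAPKAP1 and BCAS3. In every one of these 6 regions both A-Fos folds were below both parental folds, although 5 of the 6 were above the 99th percentile in all 4 lists. All 6 were also called in both lists from induced cells.

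Of the 6 strongest parental regions without an A-Fos peak, 5 were at listed gene starts, against 7.40% of all parental-only regions. The 6 highest by rank were in TFAP4, EZH1, SOX12, JADE2, SSTR5 and CTSF, and all but the TFAP4 region lay within 1 kb of a start site in the RefSeq table. The nearest start in that table was 77.6 kb from the TFAP4 region. The table does not list a start for every gene, however, and this region lay within 1 kb of an end of a gene interval. Most of the 107 parental-only regions of the strongest decile were not at listed start sites, as given below. EZH1 encodes a histone H3K27 methyltransferase, and its region had folds of 53.4 and 84.8 in the parental lists. SOX12, a SOX family transcription factor gene, had 50.5 and 88.4, and the somatostatin receptor gene SSTR5 had 43.0 and 100.3. These regions ranked above the 97th percentile in both parental lists and had no peak in either A-Fos list. SSTR5, SOX12, TFAP4 and CTSF had none in the induced lists either, while EZH1 and JADE2 were called in 1 of these.

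The promoter sequences below show how 3 shared and 3 parental-only start-site regions look. They are the 250 bases before the annotated start, on the gene's strand, 5′ to 3′, from RefSeq on GRCh38.p14, and each window holds a parental summit. Capitals mark TGTTTAC, a core of the forkhead motif, where the script found it. The first 3 are shared: BAHCC1 (chr17:81395207-81395456, plus strand), ECT2 (chr3:172750476-172750725, plus) and TSPAN4 (chr11:844164-844413, plus).
BAHCC1: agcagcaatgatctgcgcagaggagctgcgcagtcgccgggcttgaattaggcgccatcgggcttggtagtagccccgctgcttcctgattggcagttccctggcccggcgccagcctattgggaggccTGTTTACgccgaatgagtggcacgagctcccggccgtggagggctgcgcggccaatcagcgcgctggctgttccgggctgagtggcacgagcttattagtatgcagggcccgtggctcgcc
ECT2: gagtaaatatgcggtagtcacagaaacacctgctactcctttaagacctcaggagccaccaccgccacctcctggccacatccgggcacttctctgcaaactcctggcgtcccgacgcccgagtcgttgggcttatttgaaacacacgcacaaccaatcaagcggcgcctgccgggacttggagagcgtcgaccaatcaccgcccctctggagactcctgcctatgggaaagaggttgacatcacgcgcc
TSPAN4: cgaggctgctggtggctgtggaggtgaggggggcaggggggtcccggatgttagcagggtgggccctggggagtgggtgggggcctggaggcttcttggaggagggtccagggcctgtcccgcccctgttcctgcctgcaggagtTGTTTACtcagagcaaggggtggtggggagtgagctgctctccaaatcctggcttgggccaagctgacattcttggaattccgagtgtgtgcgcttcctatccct
The next 3 are parental-only: EZH1 (chr17:42745041-42745290, minus strand), SOX12 (chr20:325302-325551, plus) and SSTR5 (chr16:1078576-1078825, plus).
EZH1: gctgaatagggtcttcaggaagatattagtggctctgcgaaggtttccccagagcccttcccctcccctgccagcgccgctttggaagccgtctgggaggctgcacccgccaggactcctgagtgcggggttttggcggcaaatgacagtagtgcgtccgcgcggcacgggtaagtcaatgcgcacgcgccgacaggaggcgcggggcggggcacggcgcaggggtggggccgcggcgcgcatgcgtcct
SOX12: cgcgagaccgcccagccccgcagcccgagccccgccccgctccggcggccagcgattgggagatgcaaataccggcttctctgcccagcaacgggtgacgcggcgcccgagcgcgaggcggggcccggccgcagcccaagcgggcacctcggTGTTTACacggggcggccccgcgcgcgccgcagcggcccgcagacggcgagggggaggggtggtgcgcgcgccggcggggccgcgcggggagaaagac
SSTR5: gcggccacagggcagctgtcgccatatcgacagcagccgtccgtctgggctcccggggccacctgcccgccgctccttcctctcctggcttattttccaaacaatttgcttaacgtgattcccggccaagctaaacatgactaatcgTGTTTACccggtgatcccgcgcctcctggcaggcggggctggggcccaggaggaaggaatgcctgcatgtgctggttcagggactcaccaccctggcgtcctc

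Both kinds of promoter can carry the forkhead letters, and they differ in base composition. The printed windows have 22, 17 and 5 CpG dinucleotides in the shared set and 26, 42 and 16 in the parental-only set. Over all windows of 300 bases around a start that hold a parental summit, the 60 shared ones had a median GC content of 46.0% with 5 CpG, and the 560 parental-only ones had 60.3% with 22. All 22132 windows had a median of 62.3% with 21. The quartiles of the CpG count in the shared windows were 3 and 14, so the printed BAHCC1 and ECT2 windows are not typical of that class. The letters TGTTTAC, searched on both strands, were in 36.7% of the shared windows (22 of 60, exact 95% interval 24.6 to 50.1%) and in 24.3% of the parental-only ones (20.8 to 28.1%), against 2.85% of all windows. TGACTCA, the AP-1 letters, was in 20% of the shared (10.8 to 32.3%) and 6.96% of the parental-only windows (5.00 to 9.40%), against 4.01% of all. The 2 words do not overlap in sequence, a match is not evidence of binding, and the intervals cover counting error over windows only.

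Over all regions, those at start sites were less often shared. The start-site table covers 15812 of 19974 protein-coding genes and none on chromosome 8, so regions on chromosome 8 were left out of these shares. On other chromosomes, a region at the start of an unlisted gene counts as farther away. Of 5531 shared regions 155 (2.80%, 2.38 to 3.27%) lay within 1 kb of a start, and of 21948 parental-only regions 1625 (7.40%, 7.06 to 7.76%). Within 1 kb of either end of any protein-coding gene, chromosome 8 included, the shares were 3.66% and 8.97%. Seen from the regions at start sites, 7.82% of 1981 were shared, against 17.0% of 31612 farther away.

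The difference was also present among regions of like parental rank. In the strongest decile 53.6% of the 183 regions at start sites were shared (46.0 to 60.9%), against 87.9% of 3172 others (86.7 to 89.0%). In the ninth decile the shares were 15.6% and 45.5%, and in the eighth 6.45% and 20.5%. The share at start sites was the lower one in 10 of 10 deciles, of which the weakest hold few shared regions. Leaving out the first parental list gave 9 of 10, and leaving out any other list gave 10 of 10. The share in the strongest decile itself moved with the lists used. It was 30.9% at start sites and 62.7% elsewhere without the first parental list, and 40.9% and 76.6% without the second. Without the first A-Fos list it was 76.0% and 97.8%, and without the second 55.7% and 88.2%. Among the 107 parental-only regions of the strongest decile, 41 of the 102 off chromosome 8 were at start sites, against 98 of 2885 shared ones.

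**Figure D2:**
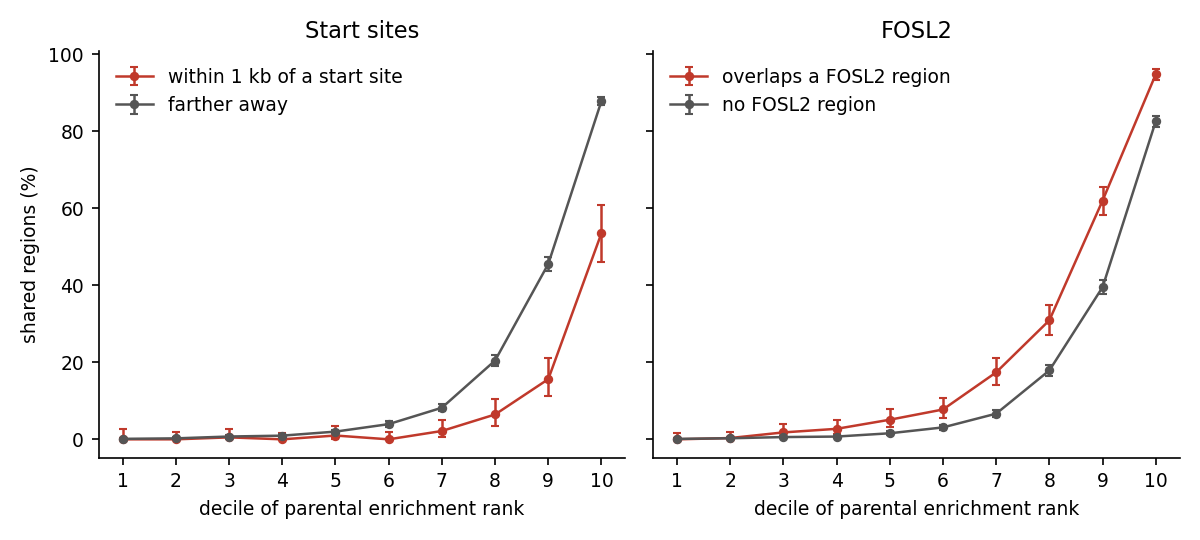
Share of parental FOXA1 regions shared with uninduced A-Fos cells (vertical axis, %) by decile of parental enrichment rank (horizontal axis), for regions within 1 kb of a start site or farther away (left) and with or without a FOSL2 region (right). Bars are exact 95% intervals over regions. In the strongest decile 53.6% of start-site regions and 87.9% of the others were shared.

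The single lists gave the same order at equal length. Among the 7633 strongest peaks of each list, 5.37% and 5.95% lay at start sites in the parental libraries and 2.23% and 2.48% in the uninduced A-Fos libraries. The groups did not overlap (5.66 ± 0.411% against 2.35 ± 0.179%, SD, n = 2), at the smallest p the exact permutation test allows, 0.33. The induced A-Fos lists had 3.32% and 2.94%, and the FOSL2 lists from uninduced cells 1.86% and 1.93%. The uninduced and induced FOXA1 lists from the A-Fos line were thus all below both parental lists, and the line, its processing and its culture cannot be told apart. The FOSL2 lists are of another target and do not bear on this comparison.

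**Figure D3:**
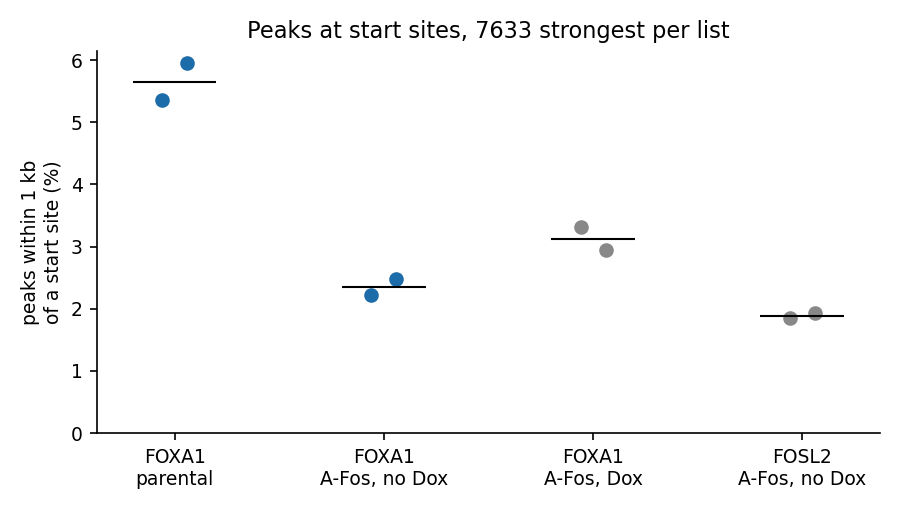
Share of the 7633 strongest peaks of each list that lie within 1 kb of a start site (vertical axis, %), by group (horizontal axis). Each point is 1 list and the line is the mean of 2. The parental FOXA1 lists are at 5.37% and 5.95% and the FOXA1 lists from the A-Fos line are at 3.32% or less. The FOSL2 lists are of another target.

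By gene, 1963 of the 15812 genes in the start-site table (12.4%) had a parental region within 1 kb of a start, and 157 of these (8.0%) had a shared one. The strongest shared start-site regions were at BAHCC1, GRAMD1A, ECT2, DNPEP, RNF213 and MYADM, chosen after the values were seen. ECT2, a gene needed for cell division, had folds of 95.9 and 280 in the parental and 21.9 and 43.8 in the A-Fos lists. DNPEP, an aspartyl aminopeptidase gene, had 86.8 and 229 against 39.5 and 77.4, and its region overlapped FOSL2. BAHCC1 had 131 and 334 in the parental lists and 7.62 and 9.05 in the A-Fos lists, which placed it at the 68.4 and 69.8 percentiles there. Shared promoters thus spanned a wide range of A-Fos ranks.

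More than 1 kb from any gene end, the strongest parental-only regions, also named after their values were seen, were in SQSTM1, KTN1, ULK1, LFNG, PRRX2 and MVB12B. SQSTM1 encodes the autophagy receptor p62, and its region, 1.19 kb from a start site, had folds of 40.3 and 69.1 in the parental lists. The region of ULK1, a kinase that starts autophagy, was 1.15 kb from a start and had 28.0 and 77.0. The other 4 lay 6.03 to 114 kb from a start. LFNG, which modifies Notch receptors with sugars, had 26.7 and 80.2. None of these had an A-Fos peak.

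Shared FOXA1 regions overlapped FOSL2 more often than parental-only ones. FOSL2 was taken from 10190 regions called in both lists of uninduced A-Fos cells, so this is AP-1 binding in the A-Fos line and not in parental cells. It overlapped 1725 of 5921 shared regions (29.1%, 28.0 to 30.3%), 17.2% of those called in 1 A-Fos list or split, and 1967 of 23295 parental-only regions (8.44%, 8.09 to 8.81%). Of parental regions with FOSL2 35.9% were shared, and of those without it 13.6%. In the strongest decile the shares were 94.8% of 1020 and 82.6% of 2554, and the share with FOSL2 was higher in 9 of 10 deciles. The level of overlap depended on the FOSL2 lists, which held 45586 and 14842 peaks. The first alone overlapped 60.6% of shared and 23.9% of parental-only regions, and the second alone 29.3% and 8.27%.

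At equal length the classes still differed, with FOSL2 at 30.7% of shared and 11.6% of parental-only regions, while the lists as wholes overlapped. Over full lists FOSL2 overlapped 9.89% and 9.23% of parental peaks and 23.6% and 21.1% of A-Fos peaks. Among the 7633 strongest peaks it overlapped 21.2% and 25.1% in parental cells and 23.6% and 25% in A-Fos cells. These groups overlapped, with means of 23.1 ± 2.78% and 24.3 ± 0.945% (SD, n = 2, exact permutation p = 1). Without the first parental list the share with FOSL2 was higher in 6 of 10 deciles, and without any other list in all 10.

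Regions shared by parental and uninduced A-Fos cells were found after doxycycline more often than parental-only ones. Both induced FOXA1 lists called 3189 of 5921 shared regions (53.9%, 52.6 to 55.1%), 19.9% of those in 1 A-Fos list or split, and 917 of 23295 parental-only regions (3.94%, 3.69 to 4.19%). Neither induced list called 30.7% of the shared and 85.2% of the parental-only regions. The classes differ in parental rank, so the shares called by both induced lists are also given by decile. In the strongest decile both lists called 63.5% of 3077 shared regions and 15 of the 107 parental-only ones. The shares were 48.6% and 12.4% in the ninth decile, and 32.8% and 8.12% in the seventh. The induced lists come from the same line as the uninduced ones.

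Repressive marks were rare in both classes. H3K27me3, the Polycomb mark of silent developmental genes, covered part of 87 shared regions (1.47%, 1.18 to 1.81%) and 920 parental-only regions (3.95%, 3.70 to 4.21%). H3K9me3, a mark of constitutive heterochromatin, overlapped 1.60% and 2.13%. Both marks were measured in parental cells. Among the 7633 strongest peaks of each list, H3K27me3 overlapped 1.36 ± 0.0463% in the parental and 1.78 ± 1.46% in the A-Fos lists (SD, n = 2). H3K9me3 overlapped 1.19 ± 0.482% and 1.89 ± 1.77%. For both marks these groups overlapped, and the A-Fos mean was the higher one. Shared regions were also wider, with a median of 856 bp against 432 bp. Width rose with parental rank, and within the strongest decile the medians were 935 bp and 860 bp. With 200 bp around each summit in place of whole peaks, the difference in FOSL2 overlap between the classes was 16.2 percentage points, against 20.7 with whole peaks.

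The 43 A-Fos regions outside the parental set were few and weak. Of these, 26 had a peak in 1 parental list and 17 in none. Their mean A-Fos percentile was 44.3 at most and under 25 in 34 of the 43. Of the 43, 21 stood alone, and others lay in groups, with 8 at chr4:49092566-49150879, 7 at chr15:20367477-20666780 and 3 at chr19:27339633-27572773. H3K9me3 overlapped 12 of the 43, against 1.08% of all 6015 A-Fos regions, and 2, 5 and 2 of the 12 lay in these 3 groups. FOSL2 overlapped 6, against 28.2% of all, and 1 was at a start site, against 2.42%. Both induced lists called 18, against 53.3% of all. Among those with no parental peak, the highest rank was 194.8 kb from SHCBP1, with folds of 4.08 and 8.65 in the A-Fos lists. A region 160.5 kb from TPTE had 4.26 and 5.80 and lay in H3K9me3, as did one 319.4 kb from ALG10B with 4.32 and 4.17. How uniquely reads map at these places is not in the lists, so whether the calls are mapping artefacts was not tested.

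Among the 5921 shared regions, ranks within the common set were largely preserved. The Spearman rank correlation across regions was 0.879 between the parental lists, 0.792 between the A-Fos lists and 0.692 to 0.768 between groups, as a description, since regions of 1 library are not independent. A region was called shifted when both A-Fos ranks lay at least 10 percentile points beyond both parental ranks. By this rule 529 regions (8.93%) ranked higher in A-Fos cells and 603 (10.2%) ranked lower. Start sites made up 1.01% of the first set (5 of 493 off chromosome 8), 9.28% of the second (53 of 571) and 2.17% of the rest. FOSL2 overlapped 31.9%, 25% and 29.3% of these sets.

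**Figure D4:**
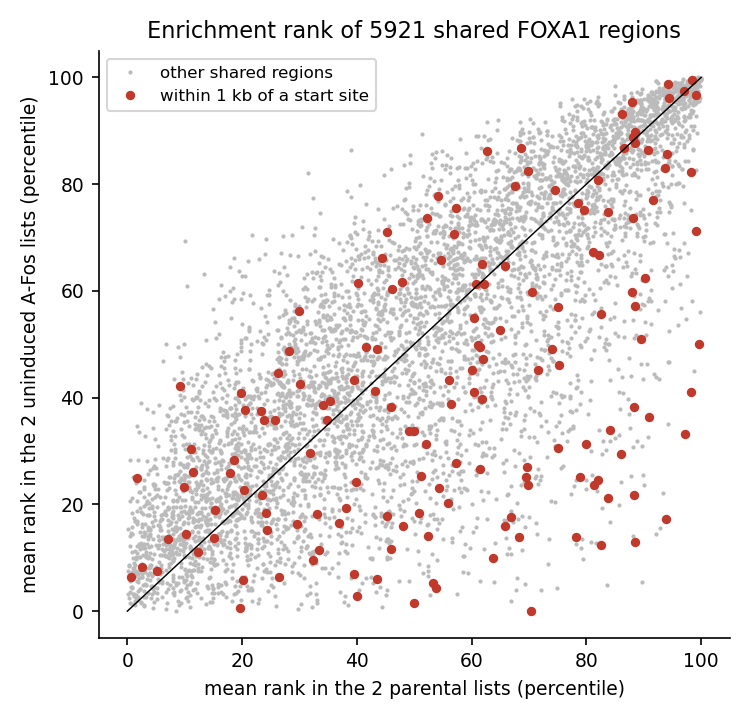
Mean enrichment rank of each of 5921 shared FOXA1 regions in the 2 parental lists (horizontal axis, percentile) and in the 2 uninduced A-Fos lists (vertical axis, percentile). Red points lie within 1 kb of a start site, regions on chromosome 8 have no start-site entry and are grey, and the line marks equal rank. Of the 603 regions ranked lower in A-Fos cells, 9.28% of those off chromosome 8 are at start sites, against 1.01% of the 529 ranked higher.

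The largest shifts up were in or near SYT1, PSD3, ST6GALNAC3, TMBIM4, EGFR and NRG3. In SYT1, a synaptic vesicle calcium sensor gene, the region ranked at 14.5 and 5.56 in parental and 70.3 and 68.3 in A-Fos cells. A region 30.8 kb from EGFR, the epidermal growth factor receptor gene, ranked at 32.2 and 11.2 and then at 81.2 and 59.7. Its folds were 14.5 and 18.0 in parental and 11.4 and 12.3 in A-Fos cells. The largest shifts down were at SLC5A10, ELF3, BHLHE40, PEMT, WDR48 and HACL1. At ELF3, an epithelial ETS factor gene, the region 0.48 kb away had folds of 38.5 and 91.6 in parental and 3.65 and 4.65 in A-Fos cells. At BHLHE40, a clock-linked repressor gene, the folds were 48.1 and 147 against 4.44 and 5.81. The regions at WDR48 and HACL1 were at start sites. FOSL2 overlapped none of these 6 and 1 of the 6 shifted up, the SYT1 region.

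Genes of 13 lists were described by the FOXA1 regions within 50 kb of the gene interval. Over all 19974 protein-coding genes, 14296 (71.6%) had a parental region, and 4507 of these (31.5%) also had a shared one. Of the 225 listed genes, 191 had a parental region and 89 of these (46.6%) a shared one. The listed genes had a median of 3 parental regions each, against 2 over all genes, and the part of that difference in the shares was not tested.

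Of the FOXA genes, FOXA1 and FOXA2 had a shared region and FOXA3 did not. The FOXA1 region, chr14:37546513-37547556 and 42.0 kb from the gene, had folds of 66.5 and 154 in parental and 19.4 and 48.7 in A-Fos cells. The FOXA2 region, 15.6 kb away, had 26.3 and 38.9 against 5.51 and 6.63. Both were thus called in all 4 lists, with higher folds in parental cells. Within the full lists, the FOXA1 region was at the 99.4 and 99.7 percentiles in parental and 95.6 and 99.0 in A-Fos cells. The FOXA2 region was at 95.3 and 95.2 against 46.7 and 52.6. These percentiles depend on list length. Shared regions away from start sites had medians of 92.8 and 95.7 against 61.0 and 76.3, so most of them were also lower in the A-Fos lists.

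Of 21 lung and foregut factor genes with a parental region 8 (38.1%) had a shared one, against 31.5% over all genes. By region the share was 16.6%, against 16.0% near all genes. GRHL2, a grainyhead factor of epithelial identity, had 15 parental regions, 4 of them shared, the strongest with folds of 79.9 and 174 against 27.5 and 54.8. EHF, an epithelial ETS factor, had 4 shared of 10, and the forkhead gene FOXP1 had 9 of 44. KLF5, a Krüppel-like factor, had 8 parental regions and none had a peak in either A-Fos list. HNF4A, a master factor of liver and gut, had 8 and none was shared. NKX2-1, the lung lineage factor, had no parental region.

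Surfactant, secretoglobin and mucin genes had a shared region in 6 of 19, or 31.6%, against 31.5% over all genes. The region 42.2 kb from SCGB3A2, an airway secretoglobin gene, had folds of 154 and 361 in parental and 54.4 and 131 in A-Fos cells. SFTPB, a surfactant protein gene, had 2 shared of 6 regions. SFTPC, the alveolar type 2 cell surfactant gene, had 8 parental regions and all 8 were parental-only. Among epithelial junction and keratin genes 8 of 17 (47.1%) had a shared region. By region the share near this list was 14.9%, against 16.0% near all genes. The 8 genes included KRT8 (62.8 and 135 against 10.9 and 9.91) and CDH1, which encodes E-cadherin (43.0 and 97.7 against 8.89 and 16.4). EPCAM had 4 regions and none was shared.

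AP-1 family genes had a shared region in 5 of 13 (38.5%), against 31.5% over all genes. Counted by region, 12.5% of the parental regions near them were shared, against 16.0% near all genes. JUN had 1 parental region, 30.9 kb away, and it was shared, with folds of 41.9 and 86.4 in parental and 5.10 and 5.01 in A-Fos cells. FOS had 3 parental regions and FOSL2 had 5, and none had an A-Fos peak. The strongest of the FOS regions had folds of 8.75 and 20.1. Among the genes commonly linked to AP-1 (matrix enzymes, adhesion receptors, growth factors) 18 of 34 (52.9%) had a shared region. By region the share near them was 17.2%, close to the 16.0% near all genes. At the promoter of CXCL8, the interleukin 8 gene, a shared region overlapping FOSL2 had folds of 66.2 and 131 against 22.8 and 38.3. EGFR had 4 shared of 8, and IL6, an inflammatory cytokine gene, had 1 of 3, with folds of 20.6 and 55.4 against 7.59 and 13.1. DUSP1, a MAP kinase phosphatase gene, had 9 regions and none was shared.

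Of 20 liver and foregut secreted protein genes with a parental region, 13 (65%) had a shared one, against 31.5% over all genes. AMBP, the bikunin precursor gene, had folds of 37.1 and 99.1 against 8.57 and 13.8. The fibrinogen gene FGB had 3 shared of 10 regions. The neighbouring fibrinogen genes FGA and FGG counted the same strongest region, so these genes are not separate cases. ALB, the albumin gene, had 1 region and it was in the second A-Fos list only. NRF2 target genes had 12 of 21 (57.1%). NRF2 is the oxidative stress factor that is constitutively active in A549 cells. The neighbouring aldo-keto reductase genes AKR1C1, AKR1C2 and AKR1C3 counted the same strongest region, with folds of 71.8 and 169 against 26.4 and 27.7. Glucocorticoid response genes had 5 of 13 (38.5%), among them SGK1 and ERRFI1, and not PER1. By region the shares were 32.7% near the liver list, 24.8% near NRF2 targets and 12.7% near glucocorticoid response genes, against 16.0% near all genes.

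Lists of genes not tied to lung epithelium varied, with few genes each. A parental region lay near 8 of 12 housekeeping genes, 6 of 12 blood markers, 6 of 12 neuron and muscle markers, and 10 of 12 fibroblast and endothelial markers. Of these, 3, 2, 4 and 3 genes also had a shared region (37.5%, 33.3%, 66.7% and 30%), against 31.5% over all genes. SNAP25, a neuronal vesicle fusion gene, had 4 shared of 16 regions, with folds up to 147 and 352 in parental and 52.3 and 132 in A-Fos cells. The muscle gene DES was counted for the DNPEP start-site region 18.8 kb away. A region within 50 kb therefore does not mark a gene as expressed or as a target.

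**Figure D5:**
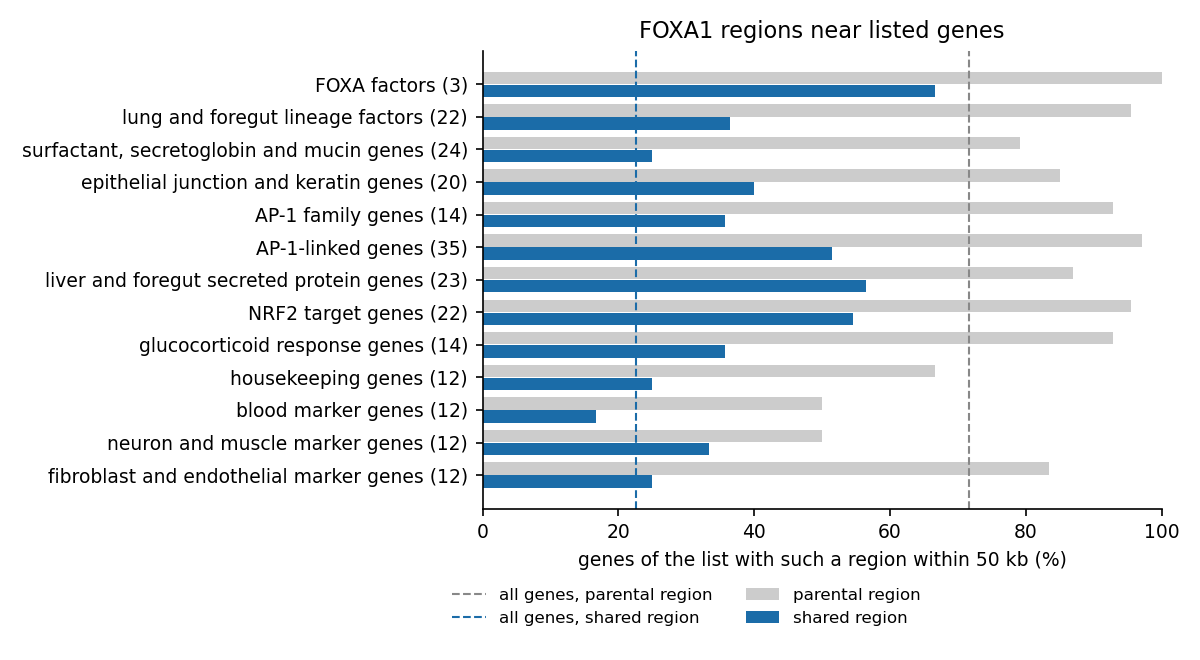
Share of the genes in each list (horizontal axis, %, list size in brackets on the vertical axis) with a parental FOXA1 region (grey) or a shared one (blue) within 50 kb. Dashed lines give the shares over all 19974 protein-coding genes, 71.6% for parental and 22.6% for shared regions. Liver and foregut secreted protein genes have shared regions at 13 of 23 members.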

How the data were processed

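FOXA1 peak lists from 2 parental and 2 uninduced A-Fos libraries were compared, with the induced FOXA1, uninduced FOSL2 and parental histone mark lists as other readouts. Inputs and induced FOSL2 lists were not analysed here. The deposited lists, 1 per library, score each peak by its fold enrichment over background (a ratio). They also hold the authors' significance values, p and q, both as −log10. Every list kept peaks with q up to 0.05. The submitters' processing notes name the build hg38 and, in no stated order, MACS2, deepTools, BWA 2.2.1, fastp 0.23.2, SAMtools 1.8 and DRAGEN, without settings. Depth per library is unknown, so no precision from read counts can be given.

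Overlaps, ranks and shares were computed with Python 3.11.15, numpy 2.4.6, pandas 2.3.3 and scipy 1.17.1, and tested on simulated data. Shares have exact (Clopper-Pearson) 95% intervals that cover counting error over regions only. List-level measures had exact two-sided permutation tests. Replicate groups and numbers came from the sample titles. The members, gene lists and rules were chosen with earlier results of these data known. Start sites and promoter sequences came from a RefSeq table on GRCh38.p14, and exons and introns were not distinguished. The naming rule took 6 regions per class by highest mean percentile, each nearest gene once, 6 rank shifts each way, at most 4 genes of a list for each state, 3 promoter sequences per class, and always FOXA1, FOXA2, FOS, FOSL2, JUN, IL6 and EGFR. Same-numbered libraries did not deviate together (correlation of the replicate differences across shared regions -0.003), so numbers were not taken as pairs. Alternatives were upper parts of lists, equal lengths, summit windows, 50% overlap, all contigs, a stricter q, each library left out, a replicate block, other gene windows and other rank rules.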

Additional observations from a re-analysis of the deposited data

How the results depend on the processing

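Peak number kept its direction under every alternative run, with A-Fos lists at 0.118 to 0.211 of the parental number when 1 library was left out. The difference in median width (56.5 bp) did not: it was -2.50 to 115.5 bp with 1 library left out, reversing without the first parental list. The class differences at start sites, for FOSL2, for calls after doxycycline and for both marks kept their sign under every alternative run. The H3K9me3 difference, -0.529 points, was smaller than its SD between the same-numbered comparisons, 1.27. Lists of equal length put 81.4% of A-Fos regions in the parental set and 67.7% of parental regions in the A-Fos set, with 874 parental-only regions and 385 A-Fos regions without a parental call. They moved the start-site difference (shared minus parental-only) from -4.60 to -17.7 percentage points and the doxycycline difference from 49.9 to 39.9. The upper 50% of each list gave 3529 shared, 15193 parental-only and 0 A-Fos regions without a parental call. That last class, 17 regions, became 35 with 200 bp around summits, 30 on all contigs and 8 at −log10 q of at least 5, where 18.4% of parental regions were shared. The FOSL2 difference was 16.2 points with 200 bp around summits. Replicate numbers did not pair the libraries. A replicate block, comparing same-numbered libraries and averaging, gave a peak number ratio of 0.160, 90.3% of A-Fos regions in parental, 14.4% of parental regions in A-Fos, 9458 shared, 55425 parental-only and 906.5 A-Fos regions without a parental call. In that block the differences were 18.0 points for FOSL2, 39.7 for doxycycline and -1.95 for H3K9me3, and 796 regions ranked higher and 743 lower, where the rule on all lists gave 529 and 603. With 1 library left out, the share of A-Fos regions in parental was 86.5 to 99.5% and that of parental regions in A-Fos 7.39 to 33.2%. Shared regions numbered 5939 to 11868, parental-only ones 23871 to 67339 and A-Fos ones without a parental call 28 to 860, since 1 list then defines a group. The start-site difference ranged from -5.97 without the first parental list to -2.61 points without the second. The others ranged from 14.8 to 36.7 points for FOSL2 (highest without the second FOSL2 list), 32.3 to 52.1 for doxycycline, -3.40 to -0.286 for H3K9me3 and -5.57 to -1.96 for H3K27me3. Ranks by −log10 p gave 209 regions higher and 230 lower in A-Fos cells, and a shift of 25 points gave 61 and 229. A 10 kb window left 55 listed genes with a shared region, of 89. Either end of all gene intervals and deciles without each library were chosen after seeing the data. The cause of these movements was not tested. Depth is unknown, so a region without a call may be bound below the calling threshold.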
